A study of Mus musculus with 6 samples.

Results

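The genes described here encode the subunits of potassium channels, measured in mouse corticothalamic projection neurons just before and after birth. They were chosen by symbol: every gene with at least 1 probe set annotated to exactly 1 symbol that starts with Kcn, with the probe set of the highest mean over all arrays standing for the gene. Of 18193 genes on the arrays, 84 met the rule. Of these, 81 are channel subunit genes, and 3 are noncoding or antisense transcripts (Kcnq1ot1, Kcnmb4os1 and Kcnmb4os2) that are described apart. The 81 comprise 7 Kcna genes, 16 genes of the Kcnb to Kcnh range (with Kcnc, Kcnd, Kcnf, Kcng and Kcnh measured), 15 Kcnj, 12 Kcnk, 7 genes of the Kcnm and related Slo channels, 4 Kcnn, 3 Kcnq and 17 genes of modifier subunits (Kcnab, Kcne, Kcnip, Kcns and Kcnv). After the 25% of genes with the lowest mean signal were set aside, 65 of the 81 subunit genes were among 13645 genes tested.

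The neurons came from C57BL/6 mice, with no transgene or deletion named in the labels. Corticothalamic neurons of layer VI send axons to the thalamus, and they were marked by green fluorescent microspheres that were injected there and carried back along the axons to the cell bodies. Injections were made at E17.5 for cortex taken at E18.5, at P1 for cortex taken at P3, and at P4 for cortex taken at P6. The dissociated cells were then sorted by fluorescence, and RNA from each sort was amplified, biotinylated and hybridized to an Affymetrix mouse expression array. Each of the 3 stages (E18, P3 and P6) had 2 arrays. The time between injection and collection was shorter at E18 than at the later stages, so stage and labelling interval cannot be told apart. The labels leave unstated if paired arrays stem from separate mice or sorts, and p-values then measure the spread between these arrays, which may be technical. The labels do not say how many animals were pooled for a sort.

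Potassium channels let potassium leave the cell and thereby pull the membrane toward rest. The voltage-gated families (Kcna, Kcnb, Kcnc, Kcnd, Kcnh and Kcnq) end the action potential and set firing patterns. Inward rectifiers (Kcnj) and tandem-pore channels (Kcnk) set the resting potential, and the Kcnm, Kcnt and Kcnn channels open with intracellular calcium or sodium. Kcnf, Kcng, Kcns and Kcnv subunits form no working channel alone and join Kcnb partners, while Kcnab, Kcne and Kcnip proteins are accessory subunits that change the gating or surface delivery of a channel. In cortical neurons, immature cells have a high input resistance and broad, slow spikes, and the adult set of currents is acquired over the weeks around birth.

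Facts about the arrays bear on every comparison. The 2 E18 arrays were close to each other (Pearson r = 0.998 across the 45101 probe sets, SD of the differences 0.127 on the log2 scale). They were far closer than the pair at P3 (r = 0.961, SD 0.573) or at P6 (r = 0.976, SD 0.457). Here r is across probe sets, which are not independent replicates. Among the subunit genes, 0 differed more than 2-fold between the E18 arrays, 6 did so at P3 (up to 1.28 log2 units, for Kcnd3) and 1 at P6 (Kcnab1, 1.03). Signal for 18S ribosomal RNA stood at 14.22 for P3 replicate 2 and 13.92 for P6 replicate 1, and at 11.32 to 11.83 elsewhere. The 3′ minus 5′ signal of the control transcripts, a sign of RNA integrity, also differed by stage: for Actb it was 0.56 and 0.58 (log2) at E18 and 0.82 to 1.76 on the later arrays, while Gapdh gave 1.48 and 1.44 on the E18 arrays against 1.68 to 2.55 later. The part of RNA quality in the stage differences was not tested. All 10 corticothalamic and layer VI markers were higher at P3 and at P6 than at E18, with a list mean of 8.13 and 8.21 (log2) on the E18 arrays and of 10.09 to 10.78 on the later ones. Pan-neuronal markers averaged 9.34 and 9.39 at E18 and 10.15 to 10.84 later. Of 8, 5 were higher and 1 lower at P3, and 6 were higher and 1 lower at P6, with median differences of 1.13 and 1.95. The part of this general neuronal rise in the channel gene differences was not tested. Progenitor markers went the other way: their mean was 11.05 and 11.06 at E18 and 6.32 to 6.63 later, with 8 of 10 lower at both later stages, and the proliferation marker Mki67 read 12.80 and 13.01 at E18 against 6.61 to 7.14 later. Astrocyte markers averaged 9.82 and 9.84 at E18 and 7.28 to 8.74 later (5 of 10 lower, 1 higher at P3; 5 lower at P6). Microglial markers averaged 8.68 and 8.69 at E18, 6.41 and 7.15 at P3 and then 6.92 and 8.36 at P6 (6 of 8 tested lower at P3). The E18 arrays therefore carried the markers of cell types that the label does not name, and the part of those cells in any stage difference below was not tested. Because these are bulk sorts, fewer cells of a type and less RNA per cell cannot be told apart.

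More potassium channel subunit genes rose than fell between E18 and the first postnatal days. By the chosen probe sets, the largest rises by P3 were those of Kcnt2, Kcnab1 and Kcna4. The largest by P6 were those of Kcnf1, Kcnk1 and Kcnc4, while Kcnj10 and Kcne1l fell steeply at both stages. Values are log2 signals, a difference of 1 is a 2-fold change, and a gene was called changed where limma's adjusted p (Benjamini-Hochberg over the 13645 genes) was below 0.05. From E18 to P3, 30 of the 65 tested subunit genes rose (46.2%) and 6 fell (9.23%), with a median difference of 0.55. The background over all genes tested was 15.5% higher and 25.7% lower, with a median of -0.13. From E18 to P6, 31 rose (47.7%) and 5 fell (7.69%) with a median of 0.66, against a background of 14.8% higher and 16.9% lower with a median of 0.08. The calls against E18 share the E18 arrays: 26 genes were higher at both later stages, 4 were higher at P3 alone, 5 were higher at P6 alone, 4 were lower at both, 2 were lower at P3 alone, 1 was lower at P6 alone, and 23 were called at neither. No gene was called in opposite directions. Genes with a mean below 5.97 were set aside, and both E18 arrays were below it for the risers Kcna4, Kcnf1, Kcng4, Kcnip4, Kcns1 and Kcnt2. These genes passed the filter through their later arrays, so their folds start near the floor of the array. Among the genes that fell, both P3 arrays of Kcnc2 and Kcnj10 and both P6 arrays of Kcnj8 were below 5.97. These passed the filter through their other arrays, so their falls end near the floor.

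Fewer genes were called when E18 stood as 1 sample, a step that also lowers the number of samples and the residual degrees of freedom. With the 2 E18 arrays averaged into 1 sample, 18 subunit genes were higher and 5 lower at P3 (all genes: 5.2% and 12.8%), and 23 of the 36 calls at P3 were kept. The 13 lost at P3 were those of Kcna2, Kcnd2, Kcng1, Kcng4, Kcnh3, Kcnj3, Kcnk12, Kcnk2, Kcnmb4, Kcnn1, Kcns1, Kcnt1 and Kcnu1. At P6 the same averaging left 26 higher and 4 lower (all genes: 7.45% and 9.89%), with 30 of 36 calls kept and those of Kcnd1, Kcnd2, Kcng2, Kcnj8, Kcnk4 and Kcnmb2 lost. Without either E18 array, fewer genes were likewise called at P3, among the subunit genes and over all genes, where a lone array was assumed to vary like the others. The median P3 difference of the subunit genes was then 0.59 (without replicate 1) or 0.56 (without replicate 2), and that of all genes -0.14 or -0.11. Rescaling of the arrays by quantile normalization moved the median of all genes at P3 from -0.13 to 0.09 and the share of all calls that were higher from 37.6% to 50.4%, while the subunit genes had 30 higher and 6 lower calls under both scalings, with Kcnk12 and Kcns1 lost and Kcna1 and Kcnk10 gained. Centring each array on its median gave 26 higher and 7 lower (all genes: 12.4% and 25.8%), with Kcnd2, Kcng1, Kcnk12 and Kcnmb4 lost and Kcnk6 gained. With the hybridization control signal as a covariate, 17 of the 36 calls at P3 were kept: the 13 named above were lost, and so were those of Kcnc2, Kcnip1, Kcnip2, Kcnq5, Kcns2 and Kcnv1. With all probe sets of a gene averaged in place of the brightest, all 36 calls at P3 and all 36 at P6 were kept. That step gave 33 higher genes at each stage (all genes: 17.6% at P3 and 15.9% at P6). It added Kcna1, Kcnab2 and Kcnmb1 at P3, and Kcna2 and Kcnj3 at P6. Among the genes given with full values, however, averaging made the called log2 difference more than 1.5 times smaller for 12 genes at P3 or P6. They were Kcna4, Kcna6, Kcnab2, Kcnc4, Kcng1, Kcnip1, Kcnip2, Kcnj9, Kcnk3, Kcnk5, Kcnq5 and Kcns2.

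**Figure D1:**
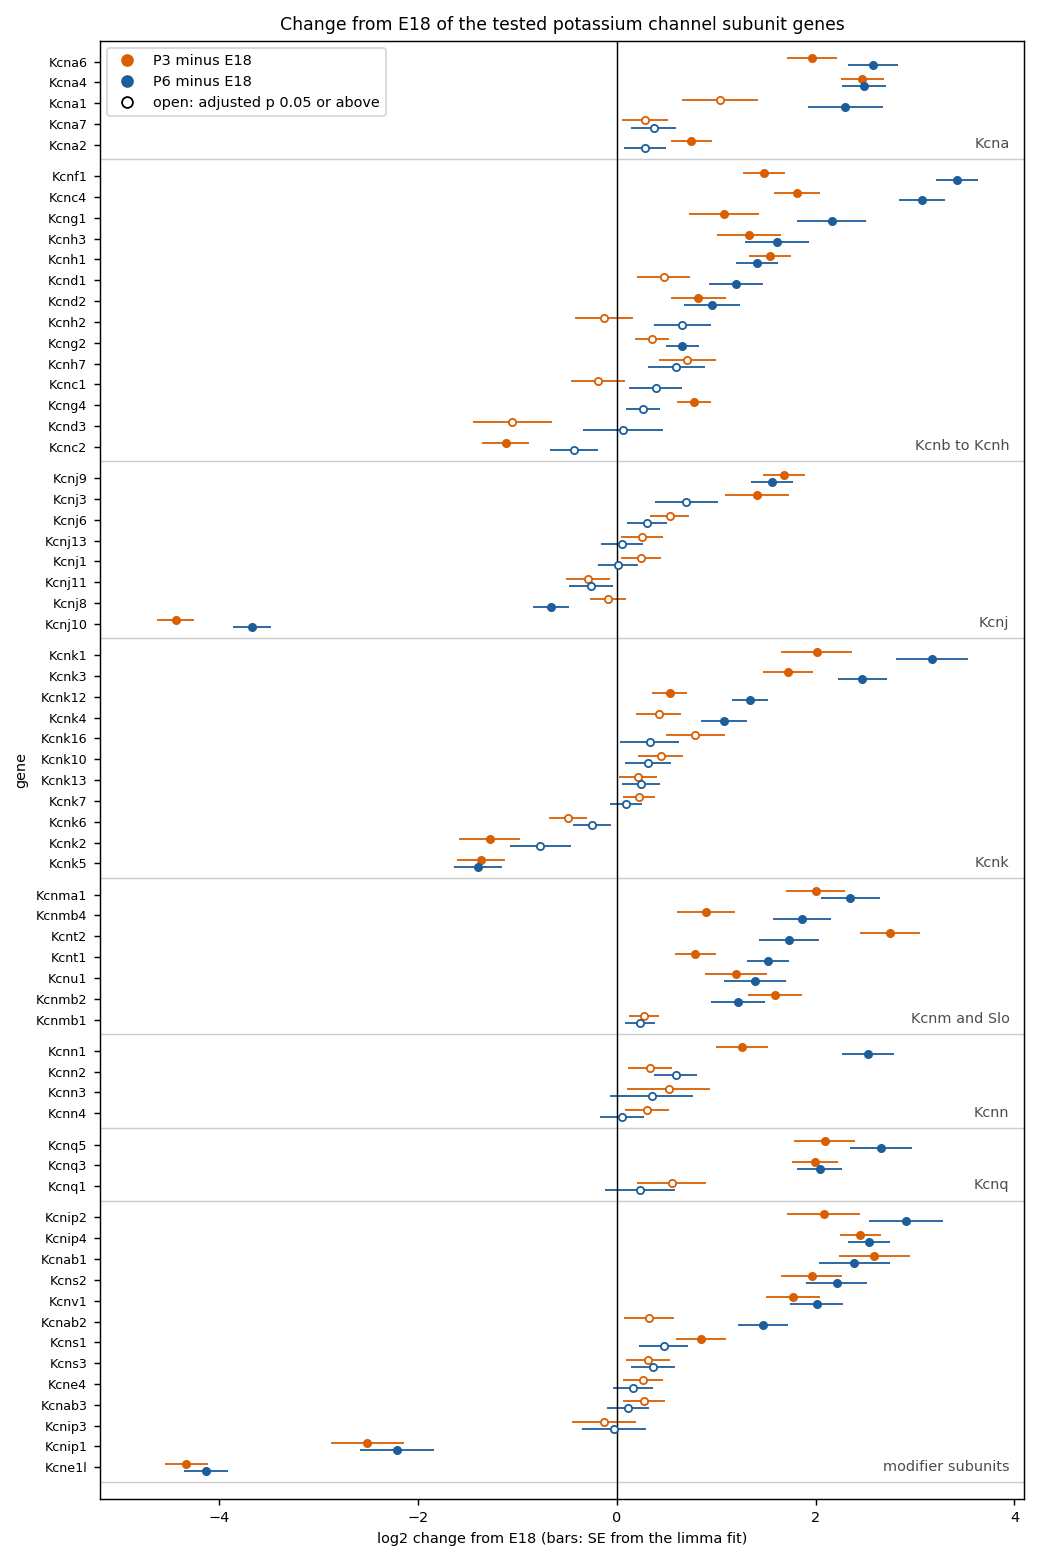
Difference from E18 (log2, horizontal axis) of each of the 65 tested subunit genes, grouped by subfamily, at P3 (orange) and P6 (blue). Bars are the standard error of the limma fit, and filled points passed an adjusted p of 0.05. Most filled points lie to the right of 0, and the 2 genes at the far left are Kcnj10 and Kcne1l, at -4.44 and -4.33 at P3.

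The promoters of 4 genes are printed here because they stand at the ends of the range: Kcnj10 and Kcne1l had the lowest adjusted p among the genes that fell by P6, and Kcnf1 and Kcnc4 the lowest among those that rose. Each window runs 5′ to 3′ on the gene's own strand over 300 bases, 250 before and 50 after the annotated start, and comes from RefSeq (GRCm38.p6). Kcnj10 lies at chr1:172340960-172341259 (+), Kcne1l at chrX:142306149-142306448 (-), Kcnf1 at chr12:17176839-17177138 (-) and Kcnc4 at chr3:107458849-107459148 (-). Capitals mark exact matches on either strand to 4 short motifs, and no match overlaps another in these windows. They are the TATA box, spelled TATAAA, and the GC box, which is searched for as GGGCGG. The other two are E-boxes, the sites of helix-loop-helix factors: the first is CAGCTG, and the second, which neurogenic factors favour, is CATCTG.
Kcnj10: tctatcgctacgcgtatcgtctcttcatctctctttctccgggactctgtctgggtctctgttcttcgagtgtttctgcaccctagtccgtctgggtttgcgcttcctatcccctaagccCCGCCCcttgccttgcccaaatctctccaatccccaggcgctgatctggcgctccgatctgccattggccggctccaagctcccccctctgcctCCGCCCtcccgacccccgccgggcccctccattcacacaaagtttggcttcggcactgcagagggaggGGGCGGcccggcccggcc
Kcne1l: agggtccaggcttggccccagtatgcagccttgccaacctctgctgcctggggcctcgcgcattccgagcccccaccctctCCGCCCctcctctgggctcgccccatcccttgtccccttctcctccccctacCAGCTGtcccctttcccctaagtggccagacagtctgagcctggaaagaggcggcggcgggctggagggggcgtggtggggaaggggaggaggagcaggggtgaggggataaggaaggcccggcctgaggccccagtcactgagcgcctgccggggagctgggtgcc
Kcnf1: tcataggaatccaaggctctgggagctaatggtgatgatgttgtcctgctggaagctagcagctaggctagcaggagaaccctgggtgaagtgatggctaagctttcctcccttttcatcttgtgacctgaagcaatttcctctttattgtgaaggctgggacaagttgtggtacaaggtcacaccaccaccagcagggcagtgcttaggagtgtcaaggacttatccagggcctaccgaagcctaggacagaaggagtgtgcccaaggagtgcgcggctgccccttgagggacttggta
Kcnc4: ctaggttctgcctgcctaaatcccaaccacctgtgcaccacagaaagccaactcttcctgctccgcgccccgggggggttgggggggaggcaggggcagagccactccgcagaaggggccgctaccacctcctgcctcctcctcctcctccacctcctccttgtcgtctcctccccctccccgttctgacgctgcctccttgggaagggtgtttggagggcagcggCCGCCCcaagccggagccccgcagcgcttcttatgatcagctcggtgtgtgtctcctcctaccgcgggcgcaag
The Kcnj10 window held 3 GC boxes, the Kcne1l window 1 GC box and 1 CAGCTG, the Kcnc4 window 1 GC box, and the Kcnf1 window none of the 4 motifs. The Kcnf1 window was also the poorest of the 4 in CpG, with 3 CpG pairs and 53.0% G and C, against 21 and 63.7% for Kcnj10.

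Promoter windows were at hand for 62 of the 81 subunit genes. A GC box was present in 53.2% of them, against 35.9% of all 27025 windows of the same length, and the median CpG count was 10 against 7. Among the genes that were higher at P3 or P6, 24 of 35 had a window, and 58.3% of these held a GC box with a median of 12.5 CpG pairs. The 7 genes that were lower all had a window, of which 57.1% held a GC box, and the 18 matched genes called at neither stage held one in 38.9%. The 13 matched genes set aside as dim held one in 61.5%, so GC boxes were not most frequent among the called genes. A TATA box was present in 4.84% of the subunit windows and in 14.2% of all windows. TGACG, a short form of the cyclic AMP response element, was present in 24.2% and 21.0%, and TTCAGCACC, the left part of the element bound by the neuronal repressor REST, in 0 of 62 and 0.359%. These are counts of letters in a short window, and no test of binding was made.

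The Kcna genes encode the Shaker-type channels that sit on axons and limit repetitive firing. Of 5 tested, 3 rose at P3 (Kcna2, Kcna4, Kcna6), 3 rose at P6 (Kcna1, Kcna4, Kcna6) and 0 fell. The shares over all genes were 15.5% higher and 25.7% lower at P3, and 14.8% and 16.9% at P6. Kcna4, which encodes a fast-inactivating channel, read 4.72 and 4.76 at E18, 7.34 and 7.07 at P3 and then 6.96 and 7.50 at P6. All later arrays lay above both E18 arrays and overlapped each other, with a rise of 2.47 ± 0.22 (SE; 5.52-fold, adjusted p = 0.000204) by P3 and of 2.49 ± 0.22 by P6. At E18 the Kcna4 probe set was below the level of 5.97, so its fold starts near the floor of the array. Kcna6 read 6.61 and 6.66, then 8.84 and 8.35, then 9.30 and 9.13, a rise of 1.96 by P3 and of 2.58 ± 0.25 by P6 (5.98-fold, adjusted p = 0.000274). The other Kcna6 probe sets rose less, by 0.23 and 0.56 at P3 and by 0.55 and 0.30 at P6, and with all averaged the gene stood 0.92 and 1.14 above E18. Kcna1, mutated in episodic ataxia, read 7.20 and 7.34 at E18, 8.89 and 7.72 at P3 and then 9.42 and 9.71 at P6. Its arrays at P3 disagreed by more than 2-fold; the call was made at P6 (2.30 ± 0.38, adjusted p = 0.00345) and not at P3 (1.04, adjusted p = 0.0626). The other bright Kcna1 probe sets differed from the chosen one at P3, with differences of 2.53 and 2.72. Kcna1 was also called higher at P3 once all its probe sets were averaged. Kcna2, the main partner of Kcna1 in axons, read 7.38 and 7.32, then 7.93 and 8.28, then 7.67 and 7.59. It rose at P3 by 0.75 ± 0.21 (adjusted p = 0.0279), a call lost without either E18 array (0.78 and 0.72; adjusted p from 0.0058 to 0.239 over 17 alternatives), and stood 0.28 above E18 at P6 (adjusted p = 0.342). Another bright Kcna2 probe set rose by 0.71 at P3 and by 1.37 at P6. With all probe sets averaged, Kcna2 was also called higher at P6. Kcna7 read 8.25 to 8.75 over the 6 arrays and passed no test.

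Kcnc subunits open only at strong depolarization and allow brief spikes, and Kcnd subunits carry the transient A-type current of dendrites. Kcnc4 read 6.95 and 7.06 at E18, 8.79 and 8.83 at P3 and then 9.94 and 10.21 at P6. Its 3 stages did not overlap, with rises of 1.81 ± 0.23 by P3 (3.50-fold, adjusted p = 0.00108) and 3.07 ± 0.23 by P6 (8.39-fold, adjusted p = 9.38e-05). Another bright Kcnc4 probe set rose by 0.40 at P3 and by 1.04 at P6. Kcnc1, by contrast, read 9.14 and 9.11, then 8.86 and 9.0, then 9.24 and 9.80, with differences from E18 of -0.19 and 0.39 that did not pass. Kcnc2, which with Kcnc1 marks fast-spiking interneurons in the adult cortex, read 6.43 and 6.60 at E18, 5.47 and 5.31 at P3 and then 5.73 and 6.43 at P6. It fell by 1.12 at P3 (adjusted p = 0.0095) and stood at -0.43 at P6 (adjusted p = 0.205), where 1 array reached the lower E18 value; without P3 replicate 2 the call at P3 was lost. Interneuron markers averaged 7.38 and 7.44 at E18 and 6.30 to 6.58 later (4 of 8 tested lower and 1 higher at P3), and their part in the fall of Kcnc2 was not tested.

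Kcnd2, the main A-type subunit of pyramidal cells, read 8.19 and 8.34 at E18, 9.39 and 8.77 at P3 and then 9.16 and 9.28 at P6. Its rises of 0.82 ± 0.28 at P3 (adjusted p = 0.0497) and 0.96 ± 0.28 at P6 (adjusted p = 0.0351) stood at the edge of the threshold: they were lost in 12 and 8 of 17 alternatives, with adjusted p from 0.00328 to 0.304 and from 0.00335 to 0.277. Leaving out either E18 array gave 0.74 and 0.89 at P3 and 0.88 and 1.03 at P6; leaving out either P6 array also ended both calls, and leaving out P3 replicate 1 (0.51) ended that at P3. The other bright Kcnd2 probe sets rose by 2.08 and 1.71 at P3 and by 1.84 and 0.92 at P6. With all Kcnd2 probe sets averaged, both calls were kept. Kcnd1 was higher at P6 by 1.20 (adjusted p = 0.0128), a call that ended without any 1 of the E18 or P6 arrays. Kcnd3 read 9.54 and 9.55 at E18, 9.14 and 7.86 at P3 and then 9.54 and 9.67 at P6, and passed no test (-1.05 at P3, adjusted p = 0.0722). Its dip came mostly from P3 replicate 2, and its probe sets disagreed, with another bright one at 0.97 at P3.

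The silent subunits of the Kcnf and Kcng groups change the gating and placement of Kcnb channels. By the chosen probe sets, Kcnf1 had the largest rise of any tested subunit gene by P6. It read 5.20 and 5.38 at E18, 6.98 and 6.56 at P3 and then 8.62 and 8.80 at P6. The 3 stages did not overlap, and the differences from E18 were 1.48 ± 0.21 at P3 (2.79-fold, adjusted p = 0.00182) and 3.42 ± 0.21 at P6 (10.7-fold, adjusted p = 4.24e-05). At E18 this probe set was below the level under which genes were set aside (5.97), so the lower end of the fold is near the floor of the array. Another bright Kcnf1 probe set rose by 0.68 at P3 and by 1.35 at P6. The rank of Kcnf1 thus depends on the probe set, since the 2 Kcnk1 probe sets rose by 3.17 and 3.43 at P6. Kcng1 read 7.03 and 7.0, then 8.62 and 7.56, then 9.09 and 9.24. It rose by 2.16 ± 0.35 at P6 (4.46-fold, adjusted p = 0.00302) and by 1.08 ± 0.35 at P3 (adjusted p = 0.0424); the call at P3 was lost in 8 of 17 alternatives (adjusted p from 0.0031 to 0.204), among them without either E18 array (1.09 and 1.06) and without either P6 array (1.08). Kcng2 rose at P6 by 0.66 (adjusted p = 0.0242) and Kcng4 at P3 by 0.78 (adjusted p = 0.0118). Both calls ended without either E18 array, and that of Kcng2 also without P6 replicate 1.

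Silent subunits of the Kcns and Kcnv groups also rose. Kcns2 read 6.24 and 6.31 at E18, 8.70 and 7.77 at P3 and then 8.53 and 8.45 at P6, which is a rise of 1.96 ± 0.31 by P3 (adjusted p = 0.00294) and 2.21 ± 0.31 by P6 (4.64-fold, adjusted p = 0.00164). Kcnv1, a brain subunit that quiets Kcnb currents, read 6.66 and 6.77, then 8.83 and 8.15, then 8.80 and 8.66, a rise of 1.77 ± 0.27 by P3 (adjusted p = 0.00244) and 2.01 ± 0.27 by P6 (4.04-fold, adjusted p = 0.00134). In both genes all later arrays lay above both E18 arrays, and the P3 and P6 arrays overlapped. Kcns1, known for variants linked to pain, read 5.79 and 5.63, then 6.17 and 6.95, then 6.13 and 6.22. Its rise of 0.85 at P3 (adjusted p = 0.0333) was lost in 10 of 16 alternatives (adjusted p from 0.00334 to 0.178), among them without either E18 array (0.93 and 0.77), without P3 replicate 2 (0.46) and without either P6 array (0.85). Kcns3 differed from E18 by 0.31 and 0.36 and did not pass.

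Kcnh genes encode the ether-a-go-go relatives. Kcnh1, the founding eag member, read 6.32 and 6.71 at E18, 8.05 and 8.06 at P3 and then 7.99 and 7.86 at P6. It was up by 1.54 ± 0.21 at P3 (2.90-fold, adjusted p = 0.00163) and by 1.41 at P6 (adjusted p = 0.0023), with no overlap between E18 and later arrays; without E18 replicate 1 the P6 value was 1.21 and the adjusted p 0.0508 (range over 17 alternatives 0.00152 to 0.0508). Kcnh3, an elk-type subunit of forebrain, rose by 1.33 at P3 (adjusted p = 0.0155) and 1.61 at P6 (adjusted p = 0.00765). Its P3 call ended without either E18 array and without P3 replicate 2, and its P6 call without E18 replicate 2 or P6 replicate 1. Of the erg-type genes, Kcnh7 read 6.53 and 6.32, then 6.77 and 7.49, then 7.28 and 6.76 and passed no test (0.71 at P3, adjusted p = 0.0858), and Kcnh2 stood at -0.13 and 0.66 with no call.

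**Figure D2:**
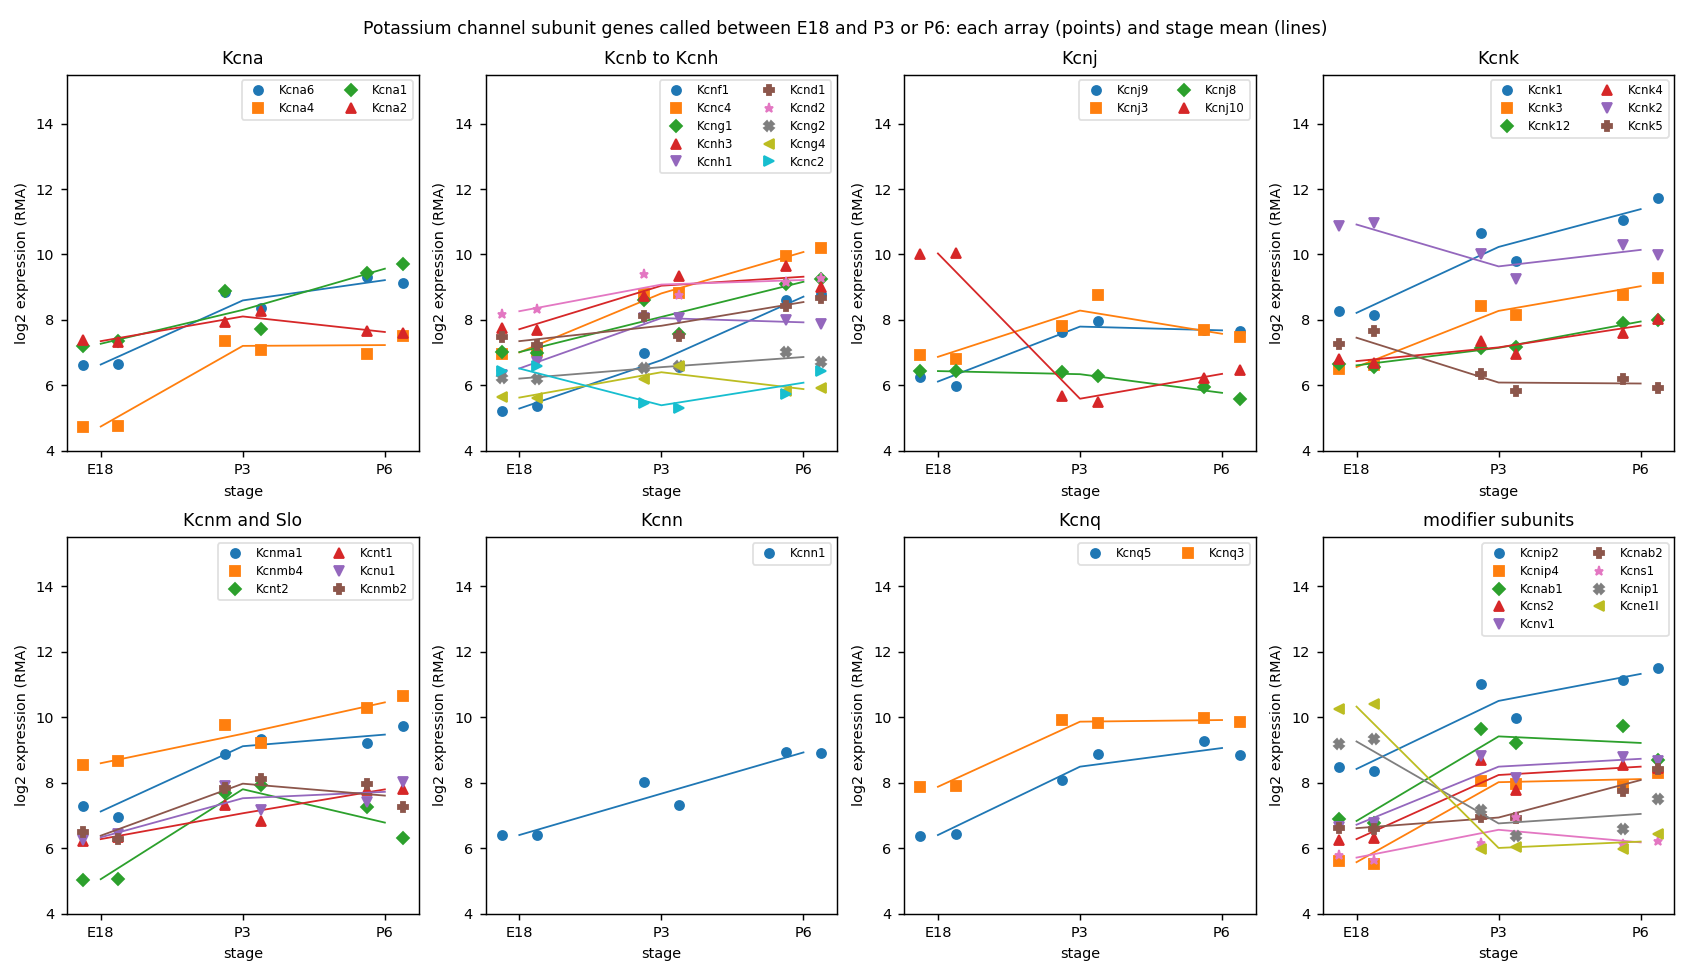
Log2 expression of the subunit genes called between E18 and P3 or P6, 1 panel per subfamily; each point is an array and each line joins the stage means. Most lines climb between E18 and P3, while those of Kcnj10, Kcne1l, Kcnip1, Kcnk2, Kcnk5 and Kcnc2 drop; levels of different genes are read by different probe sets and are not comparable with each other.

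Inward rectifiers moved both ways, as did all genes. Of 8 tested Kcnj genes, 2 rose and 1 fell at P3 (25% and 12.5%), and 1 rose and 2 fell at P6 (12.5% and 25%). Over all genes tested, 15.5% were higher and 25.7% lower at P3, and 14.8% and 16.9% at P6. The Kcnj risers were subunits of the G-protein-gated channels that open below GABA and other inhibitory receptors. Kcnj9 read 6.26 and 5.97 at E18, 7.62 and 7.97 at P3 and then 7.69 and 7.67 at P6, up by 1.68 ± 0.21 (3.19-fold, adjusted p = 0.00105) and 1.56 ± 0.21 (adjusted p = 0.00137). Kcnj3 read 6.94 and 6.80, then 7.80 and 8.77, then 7.68 and 7.47. Its rise of 1.41 ± 0.32 at P3 (adjusted p = 0.0125) was lost without E18 replicate 2 (1.35; adjusted p from 0.000861 to 0.144 over 17 alternatives), and at P6 the difference of 0.70 did not pass (adjusted p = 0.138). Another bright Kcnj3 probe set rose by 2.56 at P3 and by 2.72 at P6. With all probe sets averaged, Kcnj3 was also called higher at P6. Kcnj6, their usual partner, read 6.56 and 6.61, then 6.89 and 7.35, then 6.91 and 6.86, and its differences of 0.53 and 0.30 did not pass. Kcnj11, the pore of the ATP-sensitive channel, was bright and nearly level: 10.69 and 10.89, then 10.57 and 10.44, then 10.55 and 10.52, with differences of -0.29 and -0.26 that did not pass. Kcnj13 and Kcnj1 also passed no test, with differences from E18 of at most 0.25.

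Kcnj10, the glial channel that clears potassium around synapses, showed the steepest fall in the family. It read 10.02 and 10.04 at E18, 5.68 and 5.50 at P3 and then 6.23 and 6.47 at P6. The difference was -4.44 ± 0.19 at P3 (21.7-fold lower, adjusted p = 1.25e-05) and -3.67 ± 0.19 at P6 (12.8-fold lower, adjusted p = 2.32e-05), and at P3 the probe set was under the level of 5.97. The astrocyte gene Aldh1l1 read 11.41 and 11.39 at E18, 6.05 and 6.16 at P3 and then 6.66 and 7.17 at P6, and the radial glial gene Vim read 13.51 and 13.52, then 7.39 and 7.38, then 8.16 and 8.18. The marker lists were mixed: 5 of 10 astrocyte markers were lower at P3, S100b was higher by 0.58, and Aqp4 (0.23), Gfap (-0.30), Glul (-0.27) and Slc1a2 (-0.64) were not called, while of 10 progenitor markers all but Nes (0.07) and Pax6 (0.66) were lower. The part of these cells in the fall of Kcnj10 was not tested. Kcnj8, found in pericytes and smooth muscle, read 6.43 and 6.44, then 6.41 and 6.27, then 5.96 and 5.58, the last 2 below the level of 5.97. Its fall of 0.66 at P6 (adjusted p = 0.0259) was lost in 5 of 16 alternatives (adjusted p from 0.00782 to 0.17), among them without E18 replicate 1 (-0.67), E18 replicate 2 (-0.66) or P6 replicate 2 (-0.48). The pericyte marker Rgs5 read 8.20 and 8.26 at E18 and 5.73 to 6.13 on the P3 and P6 arrays together, so it was low by P3, where Kcnj8 was not called. The endothelial and pericyte list averaged 6.64 and 6.58 at E18, 6.04 and 6.10 at P3 and then 6.08 and 5.98 at P6. Of its 6 tested genes, 3 were lower at P3, 4 were lower at P6 and 0 were higher. The dim Pecam1 had stage means of 5.14, 5.29 and 5.39. The part of these cells in the fall of Kcnj8 was not tested.

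Tandem-pore channels carry the leak current. Of 11 tested Kcnk genes, 3 rose and 2 fell at P3 (27.3% and 18.2%), and 4 rose and 1 fell at P6 (36.4% and 9.09%). The shares over all genes were 15.5% higher and 25.7% lower at P3, and 14.8% and 16.9% at P6. Kcnk1 read 8.27 and 8.16 at E18, 10.65 and 9.81 at P3 and then 11.04 and 11.73 at P6, a rise of 2.01 ± 0.36 (adjusted p = 0.0051) and then 3.17 ± 0.36 (8.98-fold, adjusted p = 0.000638). Kcnk3, an acid-sensitive leak channel, read 6.51 and 6.61, then 8.41 and 8.14, then 8.77 and 9.29, up by 1.72 ± 0.25 at P3 (adjusted p = 0.00207) and 2.47 ± 0.25 at P6 (5.55-fold, adjusted p = 0.000368). In both, the 3 stages did not overlap. Kcnk12, a subunit that is silent in most expression systems, read 6.65 and 6.57, then 7.13 and 7.16, then 7.89 and 8.01, and was up by 1.34 ± 0.18 at P6 (2.53-fold, adjusted p = 0.00132). Its call at P3 (0.53, adjusted p = 0.0484) was lost in 11 of 16 alternatives (adjusted p from 0.0249 to 0.367), among them without E18 replicate 1 (0.57), E18 replicate 2 (0.50) or P3 replicate 2 (0.52). Kcnk4, a mechanically gated channel, rose by 1.08 at P6 (adjusted p = 0.011), a call that ended without either E18 array and without P6 replicate 2.

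The mechanosensitive relative Kcnk2 and the alkali-activated Kcnk5 went down. Kcnk2 read 10.88 and 10.95 at E18, 10.01 and 9.26 at P3 and then 10.29 and 9.99 at P6. All later arrays lay below E18; the fall of 1.28 at P3 passed (adjusted p = 0.0157) and the difference of -0.77 at P6 did not (adjusted p = 0.0974). Without E18 replicate 1 or 2 the P3 value was -1.32 or -1.24 and the call was lost (adjusted p from 0.00295 to 0.114 over 17 alternatives). Kcnk5 read 7.26 and 7.65, then 6.35 and 5.82, then 6.20 and 5.91, and fell by 1.37 ± 0.24 at P3 (adjusted p = 0.0046) and by 1.40 at P6 (2.63-fold, adjusted p = 0.00427); its other, dim probe set was flat (0.07 at P3). Kcnk10 passed no test (8.89 and 9.03, then 9.35 and 9.45, then 9.33 and 9.20), and its 2 probe sets differed in sign at P3, 0.44 against -0.55. Kcnk13, which microglia express in the adult, read 6.31 and 6.11, then 6.26 and 6.59, then 6.57 and 6.34 and passed no test.

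The Kcnm and related Slo genes, most of them subunits of channels opened by calcium or sodium, rose in the largest share of any subfamily with more than 5 genes tested. Of 7, 6 were higher at P3, the same number at P6, and 0 were lower. Over all genes, 15.5% were higher and 25.7% lower at P3, and 14.8% and 16.9% at P6. Kcnma1, the pore of the large-conductance calcium-activated channel, read 7.30 and 6.94 at E18, 8.88 and 9.35 at P3 and then 9.21 and 9.73 at P6. That is a rise of 2.0 ± 0.30 (4.0-fold, adjusted p = 0.0022) and 2.35 ± 0.30 (5.12-fold, adjusted p = 0.00099). Its neuronal accessory subunit Kcnmb4 read 8.54 and 8.65, then 9.77 and 9.22, then 10.27 and 10.64, and was up by 1.86 ± 0.29 at P6 (3.63-fold, adjusted p = 0.00249). The P3 call of Kcnmb4 (0.90, adjusted p = 0.0407) was lost in 10 of 17 alternatives (adjusted p from 0.00208 to 0.255), among them without either E18 array (0.84 and 0.96), without P3 replicate 1 (0.62) and without either P6 array (0.90). Kcnmb2, the subunit that makes the channel inactivate, rose by 1.59 at P3 (adjusted p = 0.00378) and 1.22 at P6 (adjusted p = 0.0115). The P6 call of Kcnmb2 was lost without E18 replicate 2. Kcnmb1, the smooth muscle form, differed by 0.27 and 0.23 with no call, and was called higher at P3 once its probe sets were averaged.

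Both genes of the sodium-activated pair rose. Kcnt2 read 5.04 and 5.06 at E18, 7.68 and 7.92 at P3 and then 7.25 and 6.31 at P6. It stood 2.75 ± 0.30 above E18 at P3 (6.71-fold, adjusted p = 0.000522), the largest P3 rise of any tested subunit gene, and 1.73 ± 0.30 above at P6 (3.31-fold, adjusted p = 0.00404). At E18 the Kcnt2 probe set was below the level of 5.97, so its fold starts near the floor of the array. Kcnt1, mutated in epilepsies of infancy, read 6.22 and 6.33, then 7.31 and 6.82, then 7.79 and 7.80, and was up by 0.79 at P3 (adjusted p = 0.0246) and 1.52 ± 0.21 at P6 (2.87-fold, adjusted p = 0.00168). Without either E18 array the P3 call of Kcnt1 was lost (0.73 and 0.84; adjusted p from 0.00806 to 0.192 over 16 alternatives). Kcnu1, known from sperm, rose by 1.20 and 1.39 (adjusted p = 0.02 and 0.0121) with P3 arrays at 7.90 and 7.15. Its P3 call ended without either E18 array or P3 replicate 1, and its P6 call without E18 replicate 1 or P6 replicate 2.

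Among the small-conductance calcium-activated channels, which produce the slow pause after a spike, 1 of 4 tested Kcnn genes moved. Over all genes, 15.5% were higher and 25.7% lower at P3, and 14.8% and 16.9% at P6. Kcnn1 read 6.40 and 6.40 at E18, 8.01 and 7.32 at P3 and then 8.93 and 8.92 at P6, up by 1.26 ± 0.26 (adjusted p = 0.00874) and 2.53 ± 0.26 (5.76-fold, adjusted p = 0.000392) with no overlap of stages. Without either E18 array the P3 call was lost at the same difference of 1.26 (adjusted p from 0.00143 to 0.0931 over 17 alternatives). Kcnn2 read 6.93 and 6.93, then 7.04 and 7.48, then 7.64 and 7.40, and its difference of 0.59 at P6 did not pass (adjusted p = 0.0803). Kcnn3 read 6.58 and 6.50, then 6.46 and 7.65, then 7.34 and 6.43, with later arrays on both sides of E18. Kcnn4, the intermediate-conductance form of blood cells and epithelia, read 7.64 and 7.55, then 7.69 and 8.09, then 7.74 and 7.56 and passed no test.

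The Kcnq subunits of the M current, a slow brake on repetitive firing, rose. Kcnq3 read 7.86 and 7.89 at E18, 9.91 and 9.82 at P3 and then 9.97 and 9.86 at P6. Its 4 later arrays lay close together and all above E18, and the rise was 1.99 ± 0.23 at P3 (3.99-fold, adjusted p = 0.000673) and 2.04 ± 0.23 at P6 (4.12-fold, adjusted p = 0.000543). Kcnq5 read 6.38 and 6.42, then 8.09 and 8.89, then 9.27 and 8.85, up by 2.09 ± 0.31 (4.25-fold, adjusted p = 0.0022) and 2.66 ± 0.31 (6.30-fold, adjusted p = 0.000685). Among its other probe sets, 1 rose alike (2.04 at P6) and 1 did not (-0.04). Kcnq1, the cardiac and epithelial member, read 6.28 and 6.22, then 6.20 and 7.40, then 6.39 and 6.56 and passed no test; its P3 mean rested on replicate 2.

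Of the 13 modifier genes tested, silent and accessory subunits together, 6 rose and 2 fell at each of the later stages (46.2% and 15.4%). The shares over all genes were 15.5% higher and 25.7% lower at P3, and 14.8% and 16.9% at P6. Kcnab1, a beta subunit that makes Kcna channels inactivate, read 6.89 and 6.77 at E18, 9.63 and 9.20 at P3 and then 9.73 and 8.70 at P6, up by 2.59 ± 0.36 (6.01-fold, adjusted p = 0.00171) and 2.39 ± 0.36 (5.24-fold, adjusted p = 0.00236). Kcnab2 passed at P6 and not at P3: it read 6.63 and 6.59, then 6.96 and 6.91, then 7.75 and 8.41, with 0.32 at P3 (adjusted p = 0.307) and 1.47 ± 0.25 at P6 (2.77-fold, adjusted p = 0.00359). Its P6 minus P3 difference of 1.15 did not pass (adjusted p = 0.118), and another probe set of Kcnab2 differed by 0.91 at P3 and 0.47 at P6. Kcnab2 was also called higher at P3 once all its probe sets were averaged. Kcnip4 read 5.62 and 5.52, then 8.06 and 7.97, then 7.91 and 8.31, a rise of 2.45 ± 0.21 by P3 (5.45-fold, adjusted p = 0.000163) and of 2.54 by P6. At E18 the Kcnip4 probe set was below the level of 5.97, so its fold starts near the floor of the array. Kcnip2 read 8.48 and 8.36, then 11.03 and 9.97, then 11.13 and 11.52, up by 2.08 ± 0.37 (adjusted p = 0.00481) and 2.91 ± 0.37 (7.50-fold, adjusted p = 0.00104). Both are calcium sensors that bring Kcnd channels to the surface. Another sensor, Kcnip3, also known as a transcriptional repressor, read 8.69 and 8.70, then 8.12 and 9.01, then 8.58 and 8.74 and passed no test.

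Kcnip1 and Kcne1l fell. Kcnip1, the sensor found mainly in interneurons of the adult cortex, read 9.18 and 9.34 at E18, 7.15 and 6.36 at P3 and then 6.59 and 7.50 at P6, with differences of -2.51 ± 0.37 (5.69-fold lower, adjusted p = 0.00216) and -2.21 ± 0.37 (4.64-fold lower, adjusted p = 0.00365). With the hybridization controls as a covariate both Kcnip1 calls were lost (adjusted p = 0.0504 and 0.0576; lowest over 17 alternatives 0.000146 and 1.05e-05). With all probe sets averaged the Kcnip1 differences were -1.18 and -0.90: the other probe sets above the dim level fell less (-1.77 and -0.75 at P3), and a dim one stood at 0.30. Among interneuron markers, Dlx1 read 8.76 and 8.78 at E18 and 5.51 to 6.20 later, while Gad1 read 6.24 to 6.79 over all arrays and Npy rose by 1.51 at P3. Kcne1l, an accessory subunit now named Kcne5, read 10.25 and 10.40 at E18, 5.98 and 6.03 at P3 and then 5.97 and 6.43 at P6. It fell by 4.33 at P3 (20.0-fold lower, adjusted p = 2.05e-05) and by 4.13 at P6 (adjusted p = 2.57e-05), to about the level of 5.97 under which genes were set aside. The progenitor genes Eomes (10.80 and 10.86 at E18, 4.69 to 5.51 later) and Neurog2 (11.87 and 11.83 at E18, 4.73 to 5.91 later) dropped over the same interval. The part of interneurons and progenitors in these falls was not tested.

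**Figure D3:**
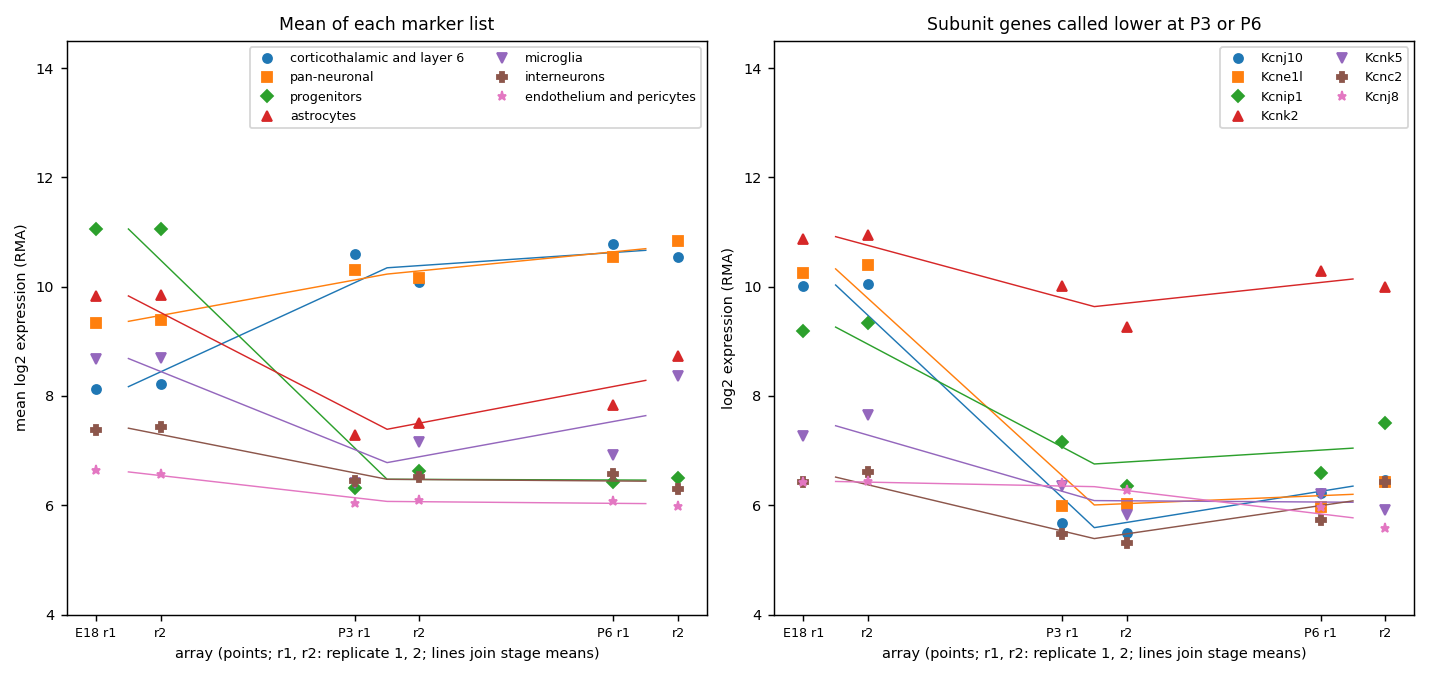
Left, mean log2 expression of each cell type marker list on every array; right, log2 expression of the 7 subunit genes called lower at P3 or P6. Points are arrays and lines join stage means. The progenitor list drops from 11.05 and 11.06 at E18 to between 6.32 and 6.63 later, over the interval in which Kcnj10 and Kcne1l drop.

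Between P3 and P6, 0 of 65 subunit genes passed in limma, where the background over all genes was also 0% called. At an unadjusted p below 0.05 there were 21 subunit genes and 2696 of all genes. The lowest adjusted p was that of Kcnf1 (1.94 ± 0.21, adjusted p = 0.0981), followed by Kcnc4 (1.26, 0.112), Kcnn1 (1.26, 0.116), Kcnab2 (1.15, 0.118) and Kcnk12 (0.81, 0.12). The median difference of the subunit genes was 0.14, against 0.16 for all genes. This comparison turned on the P3 arrays. Without P3 replicate 1, 24 subunit genes were called (18 higher and 6 lower), as were 3330 genes higher and 592 lower over all genes, while without P3 replicate 2 the count stayed at 0 with a lowest adjusted p of 0.147. Of the 24, 3 had the other sign against P3 replicate 1 alone. The stage means thus gave no call here, and a p above the threshold does not show that P3 and P6 were alike.

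**Figure D4:**
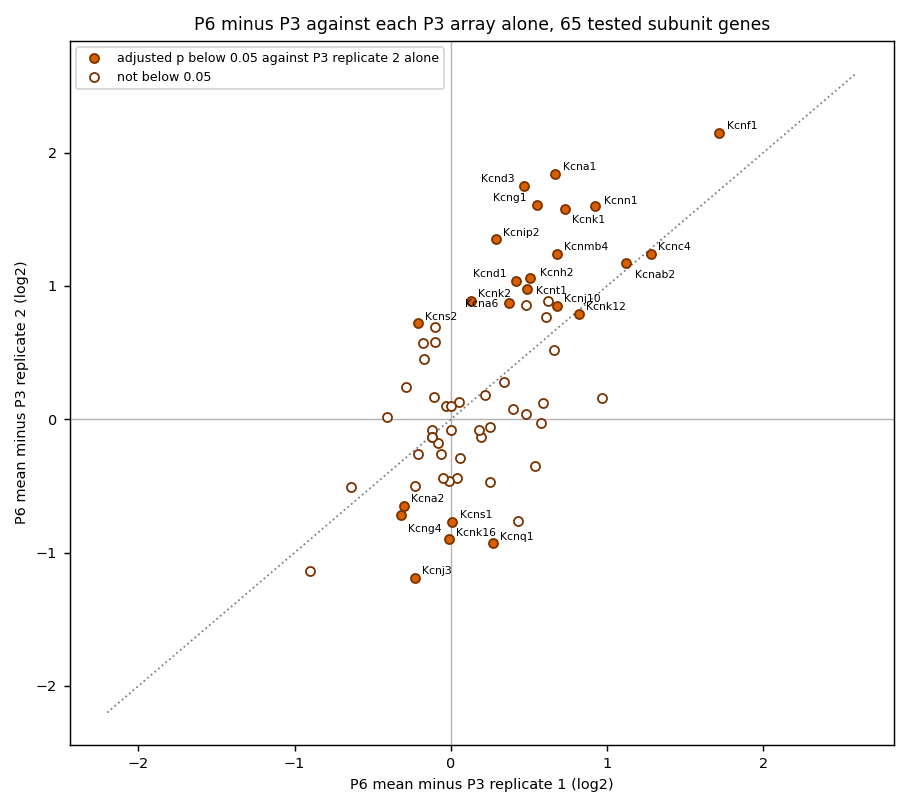
P6 mean minus each P3 array alone (log2) for the 65 tested subunit genes, against replicate 1 on the horizontal axis and replicate 2 on the vertical axis; filled points passed an adjusted p of 0.05 against replicate 2 alone, and the dotted line marks equal differences. Kcnf1, Kcnc4, Kcnab2 and Kcnk12 lie near the line, whereas Kcna1, Kcnd3 and Kcng1 lie well above it.

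Whether a gene changed as much from P3 to P6 as from E18 to P3 was tested as the difference between the 2 intervals. It passed in 14 subunit genes, 4 with a higher value in the second interval (6.15%) and 10 with a lower one (15.4%), against 16.7% and 5.28% of all genes. The 10 were Kcna4, Kcng4, Kcnh1, Kcnj3, Kcnj9, Kcnmb2, Kcnt2, Kcnq3, Kcnab1 and Kcnip4, which rose by P3 and whose P6 minus P3 differences ran from -1.02 to 0.09 (log2, none called). Kcnt2 was the most uneven of the risers (-3.77, adjusted p = 0.0041), followed by Kcnab1 (-2.79, adjusted p = 0.023), Kcna4 (-2.44, adjusted p = 0.007) and Kcnip4 (-2.36, adjusted p = 0.00655). The 4 were genes that fell by P3 and then stood 0.20 to 0.77 higher at P6 (none called): Kcnj10 (5.21, adjusted p = 0.000347), Kcne1l (4.52, adjusted p = 0.000714), Kcnip1 (2.80, adjusted p = 0.0242) and Kcnc2 (1.81, adjusted p = 0.0234). Values near 0, such as those of Kcng1 (0.00), Kcnn1 (0.00) and Kcnmb4 (0.06), were not called and do not show an even pace, since over the alternatives they ran from -1.06 to 1.07, from -0.69 to 0.68 and from -0.71 to 0.62.

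The count of 14 moved with single arrays: it was 8 without E18 replicate 1, 7 without E18 replicate 2 and 25 without P3 replicate 1. The share of all genes moved too, to 8.2% higher and 1.5% lower, 7.75% and 1.44%, and 36% and 11.1%. Kcna4, Kcnt2, Kcnip4, Kcnj10 and Kcne1l passed in every alternative that was run for them. Quantile normalization gave 4 higher and 18 lower subunit genes (all genes: 12.8% and 10.1%), and moved the share of higher values among all calls from 76.0% to 56.0%. Single arrays ended the call of Kcnab1 (without E18 replicate 2, P3 replicate 1 or P3 replicate 2; -2.72, -2.35 and -3.22), with adjusted p from 0.0092 to 0.0704 over 16 alternatives. They also ended those of Kcnq3 (either E18 array), Kcnj9 (either E18 array or P3 replicate 2), Kcnh1 (either E18 array, P3 replicate 2 or P6 replicate 2), Kcnj3 and Kcng4 (any array other than P3 replicate 1), Kcnmb2 (either E18 array or P3 replicate 2), Kcnip1 (P3 replicate 2 or P6 replicate 2) and Kcnc2 (P3 replicate 2).

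The remaining members gave little signal. The 16 subunit genes set aside as dim had means between 3.73 and 5.92: Kcna3, Kcna5, Kcnh5, Kcnh8, Kcnj12, Kcnj14, Kcnj15, Kcnj16, Kcnj2, Kcnj4, Kcnj5, Kcnk15, Kcne1, Kcne2, Kcne3 and Kcnv2. Kcnj2, a classical inward rectifier, read 3.59 to 3.93 on all 6 arrays. Kcnj4, its forebrain relative, read 5.41 and 5.43 at E18, 5.92 and 6.02 at P3 and then 5.76 and 5.67 at P6. Kcna3, the lymphocyte and microglial channel, read 5.24 to 6.01, and Kcnj16, the glial partner of Kcnj10, read 5.58 to 6.11. Of the transcripts that are no subunits, the antisense transcript Kcnmb4os2 was higher at P6 by 1.12 (adjusted p = 0.0381), Kcnq1ot1, the imprinted noncoding RNA, differed by 0.04 and 0.23 with no call, and Kcnmb4os1 was dim.

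Proteins that work with these channels were measured as a list of 44 genes, of which 37 were on the arrays and 33 were tested. At P3, 13 were higher and 3 lower (39.4% and 9.09%), and at P6, 19 were higher and 2 lower (57.6% and 6.06%), with medians of 0.81 and 0.95. Over all genes tested the shares were 15.5% and 25.7% at P3 and 14.8% and 16.9% at P6, with medians of -0.13 and 0.08. The 6 with the lowest p over the stages all rose. Lgi1, a secreted protein of Kcna complexes mutated in epilepsy, read 6.07 and 6.20 at E18, 9.56 and 9.10 at P3 and then 10.07 and 10.33 at P6, up by 4.07 at P6 (adjusted p = 4.63e-05). Its relative Lgi2 was up by 3.20 at both stages (adjusted p = 0.00031 and 0.000294), and their receptor Adam23 by 2.31 and 2.30 (adjusted p = 0.000428 and 0.000398). Dpp10, which speeds Kcnd channels, read 6.63 and 6.74 at E18 and 9.87 to 10.22 later, up by 3.28 at P3 (adjusted p = 8.66e-05). Ank3, the scaffold that holds Kcnq channels at the axon initial segment, was up by 2.01 and 2.43 (adjusted p = 0.00138 and 0.000531), and Atp1b1, a sodium pump subunit, by 1.62 and 1.84 (adjusted p = 0.0005 and 0.000263). Cntnap2, which clusters Kcna channels beside nodes, fell by 2.17 at P3 (adjusted p = 0.00339), and Nedd4l, a ubiquitin ligase that removes Kcnq channels from the surface, fell by 2.06 (adjusted p = 0.00102).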

How the data were processed

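The deposited table holds log2 expression values, for which the submitters' processing notes name RMA. The RMA version, and if all 6 arrays were summarised in 1 run, is not given in the sources used here. GEO's platform annotation named the 45101 probe sets: 34945 have 1 symbol, 932 have several and were not named, and 34741 matched RefSeq by Entrez ID. For each gene the probe set with the highest mean was kept, and the lowest 25% of genes by mean (below 5.97) were set aside. Stages were compared with limma 3.58.1 (R 4.3.3; lmFit, eBayes with an intensity trend, 3 residual degrees of freedom, two-sided) over all 6 arrays, with Benjamini-Hochberg adjustment over 13645 genes; the code was tested on simulated data. Precision is limited by the number of arrays.

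Full values are given for 52 genes: a fixed list (45 of its 50 members measured), up to 4 genes per subfamily with the smallest F-test p over the stages, and the brightest of each; 6 partner genes were taken by F-test p. Other called genes are named beside their counts, after their values were seen. The members and lists were chosen with earlier results of these data known. Same-numbered arrays did not deviate together (correlations of deviations -0.20, 0.04 and -0.14), so replicate numbers were not used as pairs. Alternatives covered probe set choice, the dim-gene filter, scaling, variance model, array weights, single arrays, the replicate block and the hybridization controls.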

Additional observations from a re-analysis of the deposited data

How the results depend on the processing

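Of 72 differences called among the genes with full values, 47 kept their call in every alternative run for them. With the lowest 50% of genes left out, 33 members were tested. They gave 19 higher and 3 lower genes at P3 (all genes: 14.1% and 30.2%) and 19 and 2 at P6 (17.2% and 18.1%). The difference between intervals passed in 7, which were 6 of the 14 and Kcnk2 (all genes: 19.5% higher and 5.07% lower). With E18 averaged into 1 sample, fewer genes were called at P3 and for the intervals, among the subunit genes and over all genes. The mean signal of the hybridization controls differed between arrays (9.25 to 13.01). As a covariate it left 14 higher and 3 lower genes at P3 (all genes: 5.87% and 10.7%). For the intervals it left 5 (all genes: 5.75% higher and 1.45% lower). It kept 17 of 36 calls at P3 and 30 of 36 at P6, where Kcnd1, Kcnd2, Kcng2, Kcnh3, Kcnip1 and Kcnmb2 lost theirs. The cause was not tested. The interval count was 22 under quantile normalization (all genes: 12.8% higher and 10.1% lower) and 8 with array weights (11.3% and 1.95%). Leaving out 1 array at a time gave 18 to 31 higher and 5 to 7 lower genes at P3, 25 to 34 and 4 to 6 at P6, 0 to 24 for P6 against P3, and 7 to 25 for the intervals. The replicate block, where numbers do not pair the arrays, gave 27 higher and 6 lower at P3 (all genes: 13.5% and 24.6%). It gave 30 and 5 at P6 (13.6% and 16.2%), 0 for P6 against P3 (0% and 0%) and 14 for the intervals (15.6% and 4.34%).

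Directions turned only in differences that were not called in the main setting. For the difference between intervals, Kcna1 was -0.93 with all probe sets averaged and -0.16 under quantile normalization (-0.95 to 1.39 with 1 array left out), Kcnab2 was -0.27 with all probe sets averaged, Kcng1 was -0.71, -0.30 and -0.08 with all probe sets averaged, quantile normalization and the covariate (-1.06 to 1.07 with 1 array left out), and Kcnq1 ran from -2.08 to 0.32. With all probe sets averaged, the P3 minus E18 values were 0.15 for Kcnd3 and -0.06 for Kcnk10, and P6 minus P3 was -0.01 for Kcns2. With 1 array left out, Kcnq1 ran from -0.05 to 1.15 at P3 and from -0.93 to 0.27 for P6 minus P3, where Kcns1 ran from -0.77 to 0.01 and Kcns2 from -0.21 to 0.72. A further 70 results were called in no setting, and 84 of their 1135 alternatives had the other sign.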
